A study of Mus musculus with 22 samples.

Results

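The genes described here are 10 genes of oligodendrocyte progenitors and newly formed oligodendrocytes: Pdgfra, Cspg4, C1ql1, Neu4, Gpr17, Enpp6, Bmp4, Itpr2, Bcas1 and Tcf7l2. They were chosen by gene name, and each had 1 row among the 37786 genes of the count table. Bulk RNA sequencing was performed on the anterior cingulate cortex (ACC) of 22 male wildtype C57BL/6J mice. The study asked how gene expression in the ACC changes after repeated activation of the neurons that project to it from the basolateral amygdala (BLA). The stimulated group (10 mice) had received 9 optogenetic stimulations, whereas the control group (12 mice) went through the same procedure with the light off. Both groups carried an AAV5 vector, injected into the BLA on both sides, with channelrhodopsin-2 (H134R) fused to EYFP under the CaMKIIa promoter, which is active mainly in excitatory neurons. Both also had an optic fibre implanted in the ACC on one side and were housed singly after implantation, and tissue was taken after the last session. Tissue came from the ACC of both hemispheres, so every sample also held the side without a fibre.

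Oligodendrocyte progenitors are dividing glial cells, spread through the adult cortex, that carry the PDGF receptor alpha and the proteoglycan NG2. When they differentiate, they pass through a short premyelinating stage marked by genes such as Enpp6, Bcas1 and Gpr17, and then either die or become myelinating oligodendrocytes. In the cortex, new oligodendrocytes continue to form in adult animals, and neuronal activity and learning are known to influence their number.

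The libraries held between 23090483 and 43668462 counts, and levels are given as CPM, the counts of a gene scaled to a common library total after TMM normalization. Every member was above the minimum of 10 counts in at least 10 mice that left 17524 genes for testing. The library numbers in the labels form a pair of runs, each with controls followed by stimulated mice: numbers 1 to 11 (6 control and 4 stimulated mice, called run 1 here) and 12 to 23 (6 and 6 mice, run 2). The study describes 2 batches of animals, but no label ties a mouse to a batch, so the run is used only as what the numbers show, and it was a term of the main fit. The mitochondrial share of the counts was 1.63% to 4.81% in run 1 and 0.982% to 1.90% in run 2. Control mice 9 and 11, both of run 2, stood apart: their summed level of 14 mature oligodendrocyte genes was 20173.7 and 14827.3 CPM, against 6405.67 CPM in the next highest mouse. Values without them are also given for the genes and lists that they moved most.

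All members were detected in every mouse, from 40 counts (Bmp4) to 15547 counts (Bcas1). Levels of different genes were compared as CPM per kilobase of exon. On that scale Bcas1, which encodes a protein of premyelinating and myelinating oligodendrocytes, was the most abundant, at a mean of 35.3 ± 26.2 (SD, n = 22). Gpr17, a receptor of cells committed to differentiation, followed at 9.48 ± 5.26, C1ql1, a secreted C1q-like protein, at 7.82 ± 1.42, and Pdgfra at 4.60 ± 2.30. The other 6 genes lay between 2.34 ± 0.438 (Neu4) and 0.753 ± 0.154 (Tcf7l2), and most neighbours in this order differed by less than their spread. The order was not the same in both runs. In run 1, C1ql1 (8.86 ± 1.04) was above Gpr17 (4.40 ± 0.630), and Bmp4 (2.34 ± 0.742) and Pdgfra (2.22 ± 0.207) were alike within their spread, whereas in run 2 Gpr17 (13.7 ± 3.04) was above C1ql1 (6.95 ± 1.07) and Pdgfra (6.59 ± 0.775) above Bmp4 (1.48 ± 0.606).

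Exons of 4 members overlap those of other annotated genes, and the library kit does not mark the strand, so reads from such stretches cannot be assigned with certainty. Gpr17 shares 188 of its 5195 exonic bases with Lims2, which lies on the other strand and had 299 to 1016 counts. Bcas1 shares 440 bases with Bcas1os1 and 34 with Bcas1os2, neither of which exceeded 16 counts. The overlaps of Bmp4 with Gm15217 and of Pdgfra with Mir7025 concerned genes of at most 2 counts, whereas Gm42802 and Gm42803, which also overlap Pdgfra, were not analysed here.

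No member passed the threshold of an adjusted p of 0.05 for stimulated against control mice (edgeR quasi-likelihood test with run as a term, Benjamini-Hochberg adjustment over 17524 genes), and 0% of all genes did. The lowest adjusted p over all genes was 0.241. At an unadjusted p under 0.05, 3 of the 10 members were reached, Enpp6, Bcas1 and Tcf7l2, all with lower values in stimulated mice, whereas 5.45% of all genes had a lower value at that level and 11.5% had either direction. Values were lower in 9 of the 10 members, with a median log2 fold change of -0.13, against a median of 0.01 and 47.4% lower values over all genes. With DESeq2, 3 of the 10 members were under an unadjusted 0.05, against 12.5% of all genes, and 0 passed the adjusted threshold, against 0.192%. Lower values at an unadjusted p under 0.05 were reached by 5 of 10 members with limma voom weights (6.78% of all genes), by 2 with the mitochondrial share as a term (4.01%) and by 2 with the replicate number as a block (3.66%). With that block and no run term, 4 of 10 members were lower and the members had a median of 0.01. Replicate numbers 5 and 6 join a control of run 1 to a stimulated mouse of run 2. The block fit therefore does not separate run from stimulation in these pairs. Lower values at that level were reached by 3 members without control mouse 9 (4.8% of all genes) and by 2 without control mouse 11 (4.21%). Without control mouse 9, Pdgfra (edgeR p = 0.0483) took the place of Tcf7l2 (edgeR p = 0.0588) among the 3. The groups overlapped for every member, and 0.00571% of all genes had groups that did not overlap. These p-values measure the spread between mice. In bulk tissue, fewer cells of a type and less RNA per cell cannot be told apart.

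**Figure D1:**
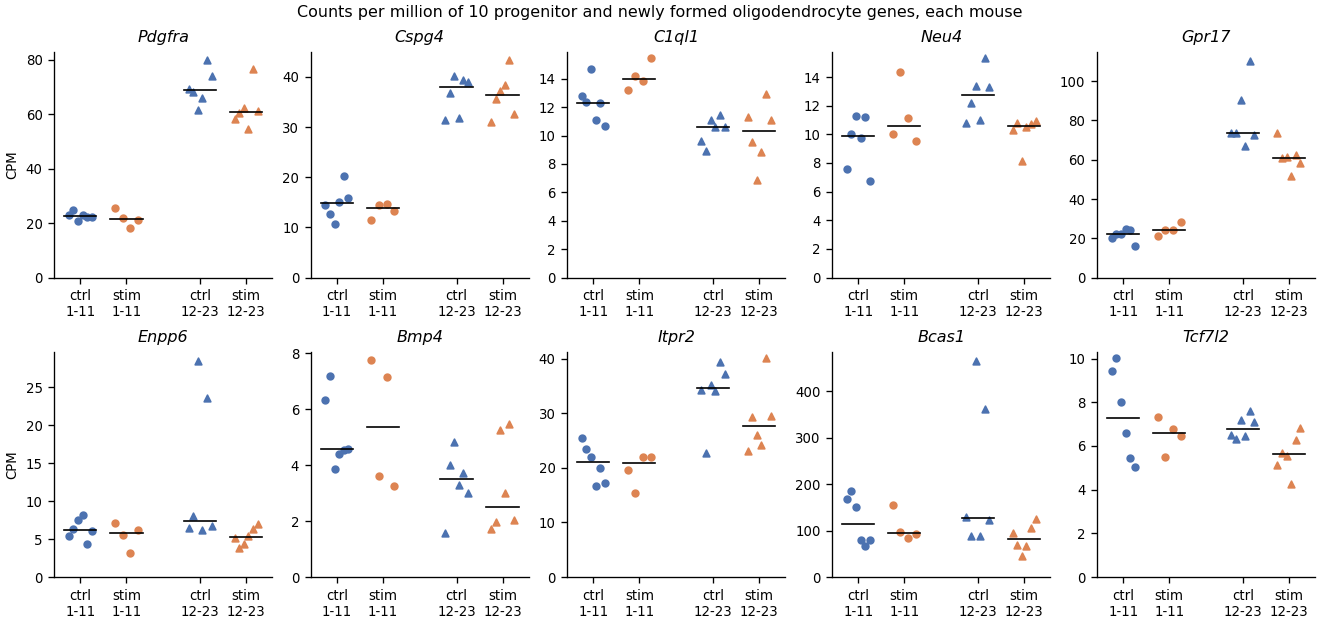
CPM of each member (vertical axes, from 0) in each of the 22 mice, split by group and by run of library numbers (horizontal axes); points are mice and black lines are medians. Control mice 9 and 11 are the pair of high points of Enpp6 (28.4 and 23.6 CPM) and Bcas1 (465.1 and 362.4 CPM), and Pdgfra, Cspg4 and Gpr17 separate the runs more than the groups.

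Among the progenitor genes, Pdgfra, the receptor through which PDGF keeps progenitors dividing, ranged from 20.6 to 24.9 CPM (median 22.6) in the 6 controls of run 1. The 4 stimulated mice of that run had 25.4, 21.9, 18.2 and 21.2 CPM. In run 2 the controls ranged from 61.7 to 79.8 CPM (median 68.8) and the stimulated mice from 54.7 to 76.7 CPM (median 60.8). The groups overlapped within both runs, with 8 of 10 stimulated mice below the control median of their own run. The log2 fold change was -0.12 ± 0.06 (SE; edgeR p = 0.0725, adjusted p = 0.477), with a 95% interval of -0.25 to 0.01. The unadjusted p was under 0.05 with voom weights (limma p = 0.0210), without control mouse 9 (edgeR p = 0.0483) and within run 2 (edgeR p = 0.0418), and in no other fit.

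Cspg4 encodes NG2, the surface proteoglycan of progenitors, which pericytes also carry. Its controls ranged from 10.7 to 20.2 CPM (median 14.9) in run 1 and from 31.4 to 40.2 CPM (median 37.9) in run 2. The stimulated mice had 11.6, 14.6, 14.7 and 13.3 CPM in run 1, and 30.9 to 43.3 CPM (median 36.3) in run 2. The stimulated mice lay within the control range in run 1 and overlapped it in run 2. The log2 fold change was -0.06 ± 0.09 (interval -0.24 to 0.12; edgeR adjusted p = 0.813).

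C1ql1 was the one member with a higher value after stimulation in the fit with run as a term. In run 1 the controls ranged from 10.7 to 14.7 CPM (median 12.3), and the stimulated mice had 13.2, 14.2, 13.8 and 15.5 CPM, all above that median. In run 2 the controls ranged from 8.91 to 11.4 CPM (median 10.6) and the stimulated mice from 6.88 to 12.9 CPM (median 10.3). The higher values were seen in run 1, the groups overlapped in both runs, and the difference between the runs did not pass (edgeR interaction, adjusted p = 0.784). The log2 fold change was 0.07 ± 0.09 (interval -0.11 to 0.26; edgeR adjusted p = 0.784).

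Neu4, a sialidase of progenitors, and Gpr17 showed opposite signs in the runs. Neu4 controls ranged from 6.77 to 11.3 CPM (median 9.86) in run 1, where the stimulated mice had 10.0, 14.4, 11.1 and 9.52 CPM. In run 2 its controls ranged from 10.8 to 15.3 CPM (median 12.7), and all 6 stimulated mice, at 8.11 to 11.0 CPM (median 10.6), were below that median. For Gpr17 the controls of run 1 ranged from 16.2 to 24.6 CPM (median 22.2) and the stimulated mice had 21.2, 24.4, 24.4 and 28.5 CPM. Its controls of run 2 ranged from 66.8 to 110.2 CPM (median 73.6) and the stimulated mice from 51.7 to 73.8 CPM (median 61.1). For both genes more stimulated mice lay above than below the control median in run 1, and most or all lay below it in run 2, with overlap in each. Over both runs the log2 fold change was -0.05 ± 0.11 for Neu4 (interval -0.28 to 0.18; edgeR adjusted p = 0.884). It was -0.14 ± 0.10 for Gpr17 (interval -0.36 to 0.07; edgeR adjusted p = 0.599). Control mice 9 and 11 had the highest Gpr17 levels, 90.2 and 110.2 CPM, and without them the values were 0.03 ± 0.11 for Neu4 and -0.01 ± 0.09 for Gpr17 (edgeR p = 0.769 and 0.873).

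The genes with the largest differences were Enpp6 and Bcas1. Enpp6, a choline phosphodiesterase used as a marker of newly formed oligodendrocytes, ranged from 4.33 to 8.20 CPM (median 6.19) in the controls of run 1. The stimulated mice of run 1 had 7.18, 5.54, 3.18 and 6.15 CPM. In run 2 the controls had 6.41, 8.08, 28.4, 6.17, 23.6 and 6.74 CPM, and the stimulated mice 5.15, 3.86, 4.42, 5.38, 6.29 and 6.98 CPM. The high values belonged to control mice 9 and 11, and the other controls overlapped the stimulated mice, of which 9 of 10 were below the control median of their run. The log2 fold change was -0.81 ± 0.27 (interval -1.35 to -0.26; edgeR p = 0.00544, adjusted p = 0.329). Without control mice 9 and 11 it was -0.27 ± 0.14 (edgeR p = 0.0725, adjusted p = 0.641).

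For Bcas1 the controls of run 1 ranged from 67.5 to 185.5 CPM (median 115.3), and the stimulated mice had 154.4, 96.9, 85.1 and 93.4 CPM. The controls of run 2 had 130.0, 88.5, 465.1, 88.7, 362.4 and 123.8 CPM, and the stimulated mice 96.0, 69.7, 45.7, 66.5, 106.7 and 125.0 CPM. The picture was that of Enpp6, with 9 of 10 stimulated mice below the control median of their run and the same pair of controls far above the rest. The log2 fold change was -0.80 ± 0.29 (interval -1.40 to -0.19; edgeR p = 0.0119, adjusted p = 0.349), and without control mice 9 and 11 it was -0.25 ± 0.19 (edgeR p = 0.197, adjusted p = 0.724).

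Tcf7l2, a Wnt pathway transcription factor required at the premyelinating stage and also present in other cells, ranged from 5.03 to 10.0 CPM (median 7.29) in the controls of run 1. The stimulated mice of that run had 7.32, 5.47, 6.76 and 6.44 CPM. In run 2 the controls ranged from 6.31 to 7.58 CPM (median 6.78) and the stimulated mice from 4.25 to 6.82 CPM (median 5.63). The stimulated mice were below the control median of their run in 8 of 10 cases, within overlapping ranges. The log2 fold change was -0.24 ± 0.11 (interval -0.47 to -0.01; edgeR p = 0.0415, adjusted p = 0.416). It was -0.20 ± 0.12 without control mice 9 and 11 (edgeR p = 0.106, adjusted p = 0.671), and -0.11 ± 0.09 with the mitochondrial share as a further term (edgeR p = 0.222). The unadjusted p was also over 0.05 without control mouse 9 (edgeR p = 0.0588), without control mouse 11 (edgeR p = 0.0672) and with the replicate block (edgeR p = 0.0615).

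Bmp4, a secreted ligand that holds progenitors back from differentiation, and Itpr2, an intracellular calcium channel enriched in newly formed oligodendrocytes and present in astrocytes, completed the set. Bmp4 controls ranged from 3.87 to 7.18 CPM (median 4.56) in run 1, where the stimulated mice had 7.75, 3.61, 7.14 and 3.25 CPM. Its controls of run 2 ranged from 1.56 to 4.82 CPM (median 3.50) and the stimulated mice from 1.71 to 5.47 CPM (median 2.52). Both Bmp4 groups covered nearly the same range in each run. The interval of its log2 fold change was wide, -0.46 to 0.44 around -0.01 (edgeR adjusted p = 0.993). Itpr2 controls ranged from 16.6 to 25.4 CPM (median 21.0) in run 1 and from 22.8 to 39.4 CPM (median 34.7) in run 2. The Itpr2 values of stimulated mice were 19.7, 15.4, 22.0 and 22.0 CPM in run 1 and 23.0 to 40.1 CPM (median 27.6) in run 2. The groups overlapped, and the log2 fold change was -0.16 ± 0.10 (interval -0.38 to 0.05; edgeR adjusted p = 0.539).

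The comparison was then made within each run. In run 1 none of the 10 members reached an unadjusted p under 0.05 (edgeR), against 5.56% of all genes, and 6 of 10 had lower values. In run 2 all 10 had lower values, and 6 reached an unadjusted p under 0.05, against 8.3% of all genes that reached it with lower values. Those 6 were Enpp6 (log2 fold change -1.34 ± 0.37), Bcas1 (-1.34 ± 0.39), Gpr17 (-0.44 ± 0.12), Neu4 (-0.34 ± 0.11), Tcf7l2 (-0.32 ± 0.13) and Pdgfra (-0.20 ± 0.09). None passed the adjusted threshold in either run, and 0% of all genes did.

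Control mice 9 and 11 bore on this count. In run 2 without them, 2 members reached an unadjusted p under 0.05, against 3.59% of all genes with lower values. Those were Gpr17 (log2 fold change -0.25 ± 0.09, edgeR p = 0.0167) and Enpp6 (-0.38 ± 0.17, edgeR p = 0.0432), and both had an adjusted p of 0.94. Over both runs without them, 0 of 10 members reached it, against 3.41% of all genes with lower values, and the median log2 fold change of the members was -0.07. Cspg4 was then at -0.03, C1ql1 at 0.12, Bmp4 at 0.10 and Itpr2 at -0.11.

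**Figure D2:**
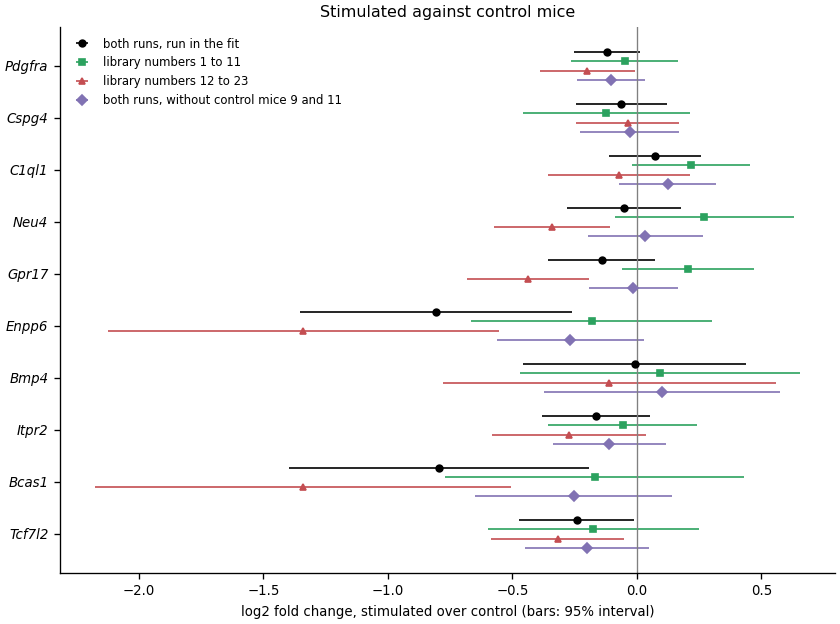
Log2 fold change of stimulated over control mice for each member (horizontal axis) with its 95% interval (bars), for both runs together, for each run and without control mice 9 and 11. Enpp6 and Bcas1 lie near -0.8 over both runs and near -1.3 in run 2, and between -0.27 and -0.17 in run 1 and without the 2 control mice.

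The difference between the runs in the response to stimulation was tested as an interaction. It passed the adjusted threshold for none of the members, and 0% of all genes passed. At an unadjusted p under 0.05 it was reached by 3 of 10 members, against 8.01% of all genes: Gpr17 (-0.59 ± 0.18 on the log2 scale, edgeR p = 0.00257, adjusted p = 0.545), Neu4 (-0.57 ± 0.20, edgeR p = 0.00877, adjusted p = 0.558) and Enpp6 (-1.11 ± 0.49, edgeR p = 0.0319, adjusted p = 0.597). Without control mice 9 and 11, Gpr17 (-0.43 ± 0.16) and Neu4 (-0.48 ± 0.21) were under that level, as were 3.97% of all genes, and Enpp6 was at -0.17 ± 0.29.

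Over all genes, the runs themselves differed far more than the groups did. For Enpp6, Bcas1 and Tcf7l2, however, the difference between the runs was smaller than that between the groups (-0.81, -0.80 and -0.24). Between the runs, 6 of 10 members passed the adjusted threshold, whereas 68.1% of all genes did. Gpr17 (log2 difference of run 2 over run 1 of 1.64 ± 0.11), Pdgfra (1.58 ± 0.07), Cspg4 (1.35 ± 0.09) and Itpr2 (0.63 ± 0.11) were higher in run 2. C1ql1 (-0.35 ± 0.09) and Bmp4 (-0.67 ± 0.22) were lower. The CPM ranges of the runs did not overlap for 3 members, Pdgfra, Cspg4 and Gpr17, as for 26.1% of all genes, and Gpr17 and Pdgfra stood above 99.5% and 99.3% of genes in this difference. Enpp6 (0.58 ± 0.26, edgeR adjusted p = 0.0546), Bcas1 (0.28 ± 0.29), Neu4 (0.17 ± 0.11) and Tcf7l2 (-0.15 ± 0.11) did not pass.

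Over 17516 genes the difference between the runs rose with exonic length (Spearman's rho 0.617, a description across genes, which share their libraries) and not with GC content (rho -0.001). The difference of stimulated against control mice had rho = 0.264 with GC content and -0.142 with exonic length over the same genes. The members fell along that trend to different degrees: the short genes C1ql1 (1473 exonic bases) and Bmp4 (2248) were lower in run 2 and the long genes Cspg4 (11931) and Pdgfra (10024) higher. Itpr2, the longest (14802), was higher by 0.63, less than Cspg4 and Pdgfra. Tcf7l2 (8775) did not differ past the threshold, and Gpr17 (5195) had the largest difference. Whether length, batch or another property of the libraries accounts for the shift was not tested.

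**Figure D3:**
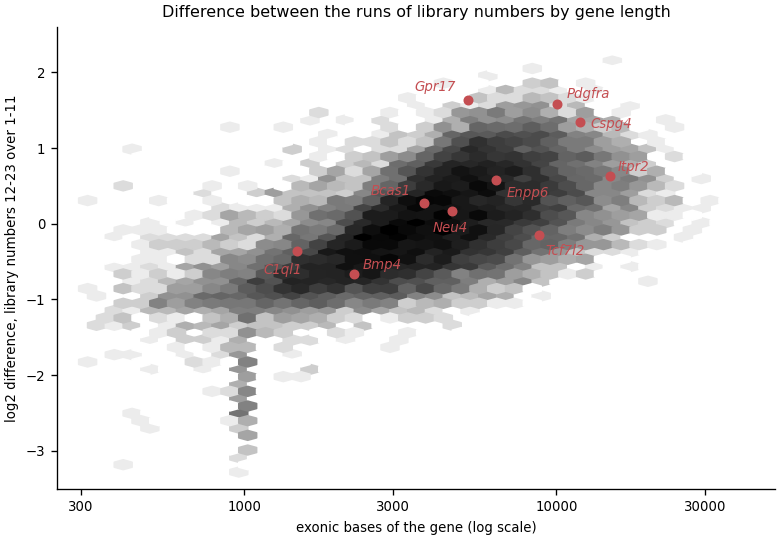
Log2 difference between the runs (vertical axis, library numbers 12 to 23 over 1 to 11) against exonic bases (horizontal axis, log scale) for the genes tested, with darker cells holding more genes and members in red. Gpr17 and Pdgfra lie at the upper edge, at 1.64 and 1.58, and Bmp4 and C1ql1 below 0.

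Related gene lists were read in the same fit. Of 17 other progenitor genes 13 had lower values in stimulated mice and none passed the adjusted threshold, and the median difference was -0.10 on the log2 scale, or -0.02 without control mice 9 and 11. At an unadjusted p under 0.05 there were 4, against 11.5% of all genes, of which Susd5 was higher (0.25 ± 0.10, edgeR adjusted p = 0.353) and 3 were lower, the strongest being Pcdh15, a cadherin of progenitors (-0.31 ± 0.13, edgeR adjusted p = 0.375). Of 11 other genes of newly formed oligodendrocytes, 8 had lower values and the median was -0.16, and -0.07 without control mice 9 and 11. The non-coding 9630013A20Rik (-0.74 ± 0.22, edgeR adjusted p = 0.325, and -0.45 without those mice) and Tns3, a focal adhesion protein (-0.34 ± 0.13, edgeR adjusted p = 0.363), were the 2 under an unadjusted 0.05, against 11.5% of all genes.

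Among 26 partners of the members (PDGF ligands, BMP receptors, antagonists and targets, Wnt pathway factors, and relatives of C1ql1, Neu4 and Itpr2), 14 had lower values, 5 were under an unadjusted 0.05 (11.5% of all genes were) and none passed the adjusted threshold. The median was -0.01. Nog, the secreted BMP antagonist noggin, had the smallest p, with 4.82 ± 0.973 CPM (SD, n = 12) in controls and 5.65 ± 1.29 CPM (n = 10) in stimulated mice and a log2 fold change of 0.27 ± 0.10 (edgeR adjusted p = 0.363). C1ql2, a relative of C1ql1, was next at -0.88 ± 0.37 (edgeR adjusted p = 0.385), and at -0.35 without control mice 9 and 11.

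Mature oligodendrocyte genes, which encode myelin proteins and lipid enzymes, had the same sign as Enpp6 and Bcas1. All 14 had lower values in stimulated mice, 13 were under an unadjusted 0.05, against 11.5% of all genes, and none passed the adjusted threshold, with a median of -0.67. Ugt8a, an enzyme of myelin galactolipid synthesis (-0.82 ± 0.24, edgeR adjusted p = 0.313, and -0.33 without control mice 9 and 11), and Ermn, a cytoskeletal protein of myelin (-0.78 ± 0.25, edgeR adjusted p = 0.329, and -0.23 without them), led the list. In run 1, 7 of 14 were lower and the median was -0.004. Without control mice 9 and 11, 13 of 14 were lower and the median was -0.10. Of these, 2 were under an unadjusted 0.05, against 3.41% of all genes with lower values.

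Markers of other cells were read as well, since Cspg4, Pdgfra, Bmp4 and Itpr2 are also expressed outside the lineage. No marker list had a gene past the adjusted threshold and no marker was at 0 in every mouse. Of 6 pericyte markers 5 had lower values, led by Rgs5 (-0.25 ± 0.09, edgeR adjusted p = 0.353) and Kcnj8 (-0.14), with a summed level of 167.7 to 270.2 CPM in controls and 171.1 to 265.0 CPM in stimulated mice. All 5 endothelial markers (Flt1 -0.15, Tek -0.13) and all 6 astrocyte markers (Fgfr3 -0.19, Gja1 -0.17) had lower values. All 6 neuron markers, which summed to 6456.13 to 12018 CPM over the mice, had higher values, led by Slc17a7, the vesicular glutamate transporter of cortical excitatory neurons (0.16 ± 0.06, edgeR adjusted p = 0.363), and Syt1 (0.11). Among 6 vascular fibroblast markers 3 were higher and 3 lower (Lum -0.32, Ogn 0.29), with summed levels of 55.0 to 157.1 CPM in controls and 49.1 to 306.8 CPM in stimulated mice. Of 5 microglia markers 4 were higher (Aif1 0.18) and P2ry12 was at -0.11. These directions depended on the fit: with the mitochondrial share as a term, 3 of 6 neuron, 3 of 6 astrocyte and 4 of 5 endothelial markers were higher, and with voom weights all 6 fibroblast markers were lower. The part of these cells in the members' values was not tested.

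How the members varied with the mature lineage was examined within each run, as the Pearson correlation of log2 CPM with the mean log2 level of the 14 mature genes, centred per gene. The control and stimulated mice of a run were pooled, and the group means were left in. A difference between the groups can therefore enter these correlations, here and with the other levels below, and its part was not tested. There were 20 relations (10 members in 2 runs), each with a permutation p from 100000 permutations, two-sided and adjusted over the 20. In run 2 (12 mice) Enpp6 had r = 0.977 and rho = 0.874 (permutation adjusted p = 0.0004 and 0.0037), and Bcas1 r = 0.959 and rho = 0.790 (permutation adjusted p = 0.0004 and 0.0162). Without control mice 9 and 11, the 2 mice farthest out, r was 0.804 for Enpp6 and 0.792 for Bcas1 (permutation adjusted p = 0.0431 for both), while rho was 0.782 and 0.636 and did not pass (permutation adjusted p = 0.0873 and 0.174). Among those 10 mice, leaving out the 2 then farthest gave r = 0.413 for Enpp6 and 0.459 for Bcas1, so the relation in run 2 rests on a few mice. In run 1 (10 mice) Bcas1 had r = 0.788 and rho = 0.770 (permutation adjusted p = 0.0289 and 0.0419) and 0.724 without the 2 farthest mice. Enpp6 had r = 0.668 in run 1 (permutation adjusted p = 0.0888).

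Gpr17 and Neu4 passed this test in run 2 alone. In run 2 Gpr17 had r = 0.835 and rho = 0.797 (permutation adjusted p = 0.00864 and 0.0162), and Neu4 r = 0.769 and rho = 0.727 (permutation adjusted p = 0.00864 and 0.0394). These rest in part on control mice 9 and 11, since without them r was 0.571 and 0.681 and neither passed (permutation adjusted p = 0.219 and 0.106). In run 1 r was 0.006 for Gpr17 and 0.132 for Neu4, and the difference of r between the runs was not tested.

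Cspg4 ran the other way in run 1, where r was -0.918 and rho -0.939 (permutation adjusted p = 0.000933 and 0.0037), and -0.856 without the 2 farthest mice. In run 2 its r was 0.346, and -0.123 without control mice 9 and 11, so the inverse relation was seen in one run. The relations of Pdgfra, C1ql1, Bmp4, Itpr2 and Tcf7l2 with the mature level did not pass by Pearson's r in either run, and that of Tcf7l2 in run 2 passed by rho alone (rho = 0.685, permutation adjusted p = 0.0472).

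**Figure D4:**
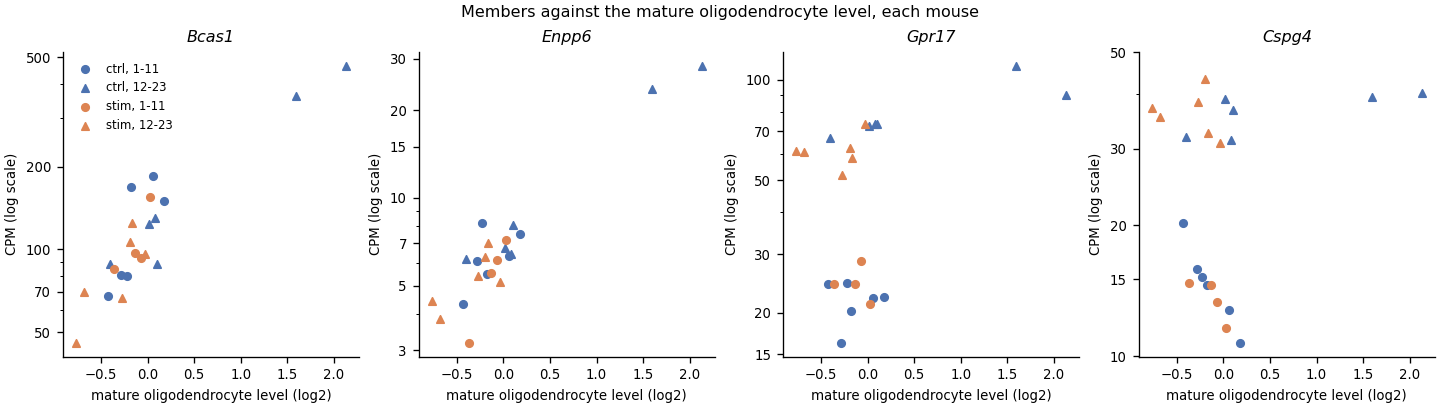
CPM of Bcas1, Enpp6, Gpr17 and Cspg4 (vertical axes, log scale) against the mature oligodendrocyte level (horizontal axes, mean centred log2 CPM of 14 genes) in each mouse, with circles for run 1 and triangles for run 2. Control mice 9 and 11 lie at levels of 2.13 and 1.59, and no other mouse exceeds 0.18. Cspg4 falls with the level among the circles.

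The same relation was computed with other levels after the values had been seen. With 6 vascular fibroblast markers, Bmp4 passed by r in both runs and by rho in run 2, at r = 0.874 and rho = 0.806 in run 1 (permutation adjusted p = 0.0203 and 0.0711) and r = 0.836 and rho = 0.860 in run 2 (permutation adjusted p = 0.0044 and 0.0122), and at 0.812 and 0.832 without the 2 farthest mice. No other member passed by r or rho with these markers, Pdgfra included, at r = 0.198 and 0.409. With the 17 other progenitor genes, Gpr17 had r = 0.941 in run 2 (permutation adjusted p = 0.0006) and 0.827 without the 2 farthest mice, and Tcf7l2 had r = 0.808 in run 1 and 0.709 in run 2 (permutation adjusted p = 0.0138 and 0.0403). By rho, Gpr17 passed as well (permutation adjusted p = 0.0156), and Tcf7l2 passed in run 1 (0.0158) and not in run 2 (0.0512). Bcas1 (r = 0.938), Enpp6 (0.899) and Neu4 (0.774) also passed by r in run 2, and without the 2 farthest mice these were 0.759, 0.468 and 0.486. By rho, Bcas1 passed (permutation adjusted p = 0.0156) and Enpp6 and Neu4 did not (0.0916 and 0.0801). In run 1, Itpr2 (rho = 0.794) and, with the opposite sign, Cspg4 (rho = -0.782) passed by rho alone (permutation adjusted p = 0.0408 for both). Control mice 11 and 9 had the highest levels of the other progenitor genes as well (0.443 and 0.402). This level is thus not separate from the mature level, and whether the relations concern progenitors alone was not tested.

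**Figure D5:**
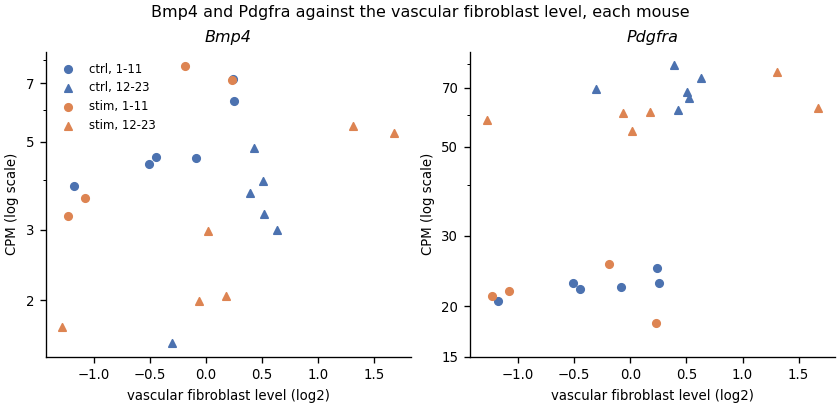
CPM of Bmp4 and Pdgfra (vertical axes, log scale) against the vascular fibroblast level (horizontal axes, mean centred log2 CPM of 6 markers) in each mouse, with circles for run 1 and triangles for run 2. Bmp4 rises with the level in both runs (r = 0.874 and 0.836), whereas Pdgfra shows r = 0.198 and 0.409.

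The genes whose pattern was most like that of a member were sought over all 22 mice, after removal of the mean of each run and group, as a description. Bcas1 was nearest to Plekhb1 (r = 0.991) and Mbp (0.990), the latter encoding myelin basic protein, and Enpp6 to the connexin gene Gjb1 (0.941) and Anln (0.927). Without control mice 9 and 11 these values were 0.995 and 0.978 for Bcas1, and 0.764 and 0.738 for Enpp6. Bmp4 was nearest to the collagen genes Col18a1 (0.933, and 0.929 without those mice) and Col3a1 (0.894, and 0.924 without them). Gpr17 was nearest to the neuregulin receptor Erbb3 (0.761, and 0.618 without them) and to Sox5 (0.738, and 0.599 without them). Other members had other nearest genes: Tcf7l2 to Nmi (0.908) and Efs (0.903), Itpr2 to Nqo1 (0.851) and Arhgap18 (0.848), Pdgfra to Gm7805 (0.792) and Zfp521 (0.758), Neu4 to Zfp110 (0.768) and Gpr157 (0.767), and Cspg4 to Gm14111 (0.765) and Melk (0.732). Between members, the closest pair was Enpp6 and Bcas1 (r = 0.785, and 0.436 without control mice 9 and 11), followed by Itpr2 and Tcf7l2 (0.658 and 0.645) and Bcas1 and Tcf7l2 (0.621 and 0.758).

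Promoter sequences were set beside these patterns, with 1 gene for each: Pdgfra, which separated the runs, Enpp6, which was related to the mature level in run 2 with control mice 9 and 11 included, and Bmp4, which was related to the fibroblast markers by r in both runs. The sequences are from RefSeq (GRCm38.p6), run 5′ to 3′ on the strand of the gene, and cover 250 bases before to 50 bases after its start. They lie at chr5:75152001-75152300 (plus strand), chr8:46986637-46986936 (plus strand) and chr14:46390620-46390919 (minus strand). Capitals mark any match, on either strand, to the E-box CAGCTG or to the Sox-type motifs ACAAAG and AACAAT.
Pdgfra: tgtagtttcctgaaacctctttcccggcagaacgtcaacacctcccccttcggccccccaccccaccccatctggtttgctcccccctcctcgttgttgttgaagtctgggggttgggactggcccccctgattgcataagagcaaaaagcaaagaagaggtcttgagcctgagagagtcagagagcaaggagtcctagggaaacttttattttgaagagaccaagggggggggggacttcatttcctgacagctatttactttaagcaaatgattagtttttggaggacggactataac
Enpp6: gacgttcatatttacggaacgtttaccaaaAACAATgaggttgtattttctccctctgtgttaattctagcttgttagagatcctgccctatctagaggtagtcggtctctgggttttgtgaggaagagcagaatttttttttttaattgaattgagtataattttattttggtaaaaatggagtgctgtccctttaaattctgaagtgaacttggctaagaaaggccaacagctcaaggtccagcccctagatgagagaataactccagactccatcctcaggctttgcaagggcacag
Bmp4: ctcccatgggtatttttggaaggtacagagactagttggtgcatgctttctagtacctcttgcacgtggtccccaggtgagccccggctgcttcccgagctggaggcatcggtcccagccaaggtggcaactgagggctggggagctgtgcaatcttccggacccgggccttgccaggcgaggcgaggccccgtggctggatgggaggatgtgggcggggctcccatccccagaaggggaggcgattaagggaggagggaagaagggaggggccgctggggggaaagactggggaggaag
The motifs were counted in 8 promoters of 7 members, and no promoter of C1ql1, Gpr17 or Bcas1 was read. Of the 8, 0 held CAGCTG, 1 held ACAAAG (a start of Tcf7l2) and 2 held AACAAT (Enpp6 and another start of Tcf7l2). Of all 32851 promoters, 16.3%, 18.7% and 10.7% held these motifs. The matches are a description of these letters, and no match says only that they are not in this window.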

How the data were processed

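Total RNA of bulk ACC tissue was made into libraries with the SMART-Seq v4 kit, which gives full-length cDNA and no strand. Per the submitters' processing notes, the authors used cutadapt 1.10, STAR 2.5.3a, HTSeq 0.6.1p1 and DESeq2 1.22.1 with mm10, and deposited whole-number counts per gene for 22 mice. The deposited signal columns, counts divided by size factors by the authors, and the authors' 3 columns of their own comparison (a fold change and p-values) were not used. Groups came from the labels, and the library number from the sample description. The study fitted batch and RNA integrity as covariates and lists both per sample in a supplementary table, which was not used here.

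Genes reaching 10 counts in 10 or more mice were tested with edgeR 4.0.16 (TMM, quasi-likelihood, run and group as terms, R 4.3.3), and the steps were tested on simulated data. SE values were derived from the F statistic of each gene. DESeq2 1.42.0, limma 3.58.1 (voom with quality weights) and sva 3.50.0 were alternatives. CPM used TMM library sizes. Log2 CPM used a prior count of 2. Exonic lengths were from GENCODE M21 (GRCm38), which held 37772 of 37786 gene identifiers. The smallest p that 100000 permutations can give is 1e-05. All 231 pairs of libraries differed by more than sampling noise (lowest mean chi-square 10.0). Named genes were all members, in each list the 2 with the smallest p and any past the adjusted threshold, the 2 nearest genes of each member (those of C1ql1 are not reported here), and genes with overlapping exons. The members and lists were chosen with earlier results of these data known, and the 3 motifs and 3 promoters shown were chosen after the patterns were seen.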

Additional observations from a re-analysis of the deposited data

Results flagged for a closer look

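In 2 of 40 groups (10 members, 2 groups and 2 runs) 1 mouse lay far from the others, and chance flags about 1 in 20 groups. Neu4 was at 8.11 CPM in stimulated mouse 7 of run 2, against 10.3 to 11.0 CPM in the other stimulated mice of that run. Itpr2 was at 22.8 CPM in control mouse 8 of run 2, against 34.1 to 39.4 CPM in the other controls.

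For 3 of 10 members the response to stimulation differed between the runs at an unadjusted p under 0.05 (edgeR interaction), against 8.01% of all genes. The difference was -0.59 for Gpr17 (adjusted p = 0.545), -0.57 for Neu4 (adjusted p = 0.558) and -1.11 for Enpp6 (adjusted p = 0.597), each as run 2 minus run 1 on the log2 scale, and none passed the adjustment over all genes. Without control mice 9 and 11, Gpr17 (-0.43) and Neu4 (-0.48) remained under that level, against 3.97% of all genes, and Enpp6 did not (-0.17, edgeR p = 0.556).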

How the results depend on the processing

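No member passed the adjusted threshold under any of the 15 alternatives run. The members under an unadjusted 0.05 numbered 3 in the reported fit (lower values at this level in 5.45% of all genes), 5 with voom weights (6.78%), 0 in run 1 (5.56% in either direction), 6 in run 2 (8.3%), 2 with the mitochondrial share as a term (4.01%) and 0 without control mice 9 and 11 (3.41%), with 3 without control mouse 9 (4.8%) and 2 without control mouse 11 (4.21%). For other progenitor genes the count of 4 became 0 with group as the only term, 1 with the mitochondrial share as a term, 2 in run 1, 7 in run 2, 2 without both mice, 1 without control mouse 11 and 1 in run 2 without both. For other newly formed oligodendrocyte genes the count of 2 became 1 with group alone, 5 with DESeq2, 5 with 1 surrogate variable, 0 in run 1, 4 in run 2 and 1 without both mice. For mature genes the count of 13 became 5 with voom weights, 0 in run 1, 2 without both mice, 6 without control mouse 9 (10 without control mouse 11) and 6 in run 2 without both. For partners the count of 5 became 1 with group alone, 3 with the mitochondrial share, 2 in run 1, 3 without both mice and 2 in run 2 without both. The counts of these lists are in either direction. Over all genes, 11.5% were under an unadjusted 0.05 in the reported fit, 12.5% with DESeq2 and 5.56% in run 1. For the other fits the share in either direction is not given here. There, a change in a list cannot be told from a change over all genes. The causes were not tested.

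Signs changed in 20 of 150 values, none past the adjusted threshold: Cspg4 to 0.084 with group alone and 0.036 in run 2 without both mice; C1ql1 to -0.073 in run 2 and -0.0015 without both there; Neu4 to 0.27 in run 1 and 0.033 without both mice; Gpr17 to 0.20 in run 1; and Bmp4, at -0.01, to 0.0059 with no count minimum, 0.033 with a surrogate variable, 0.046 with the mitochondrial share, 0.091 in run 1, 0.10 without both mice, 0.060 without control mouse 9, 0.0075 without control mouse 11 and 0.10 in run 2 without both.

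The labels number the mice within each group. Deviations of same-numbered mice from their group means, with the run left in, correlated at -0.367 to 0.635 (mean 0.308, against -0.040 for other pairs), with 8 of 10 over 0.1 and numbers 5 and 6, which cross the runs, below 0. As no label gives the number a meaning and not every pair was over 0.1, the mice were not treated as paired. With the replicate number as a block (10 pairs, no run term), 2 members, 2 other progenitor, 1 other newly formed, 3 mature and 3 partner genes were under an unadjusted 0.05. The 2 other progenitor genes were higher and the rest lower, against 3.66% of all genes with lower values. As numbers 5 and 6 join a control of run 1 to a stimulated mouse of run 2, the difference between the runs enters this fit. Under this block 4 of 10 members were lower, with a median of 0.011, Pdgfra was at 0.21, Cspg4 at 0.23, Neu4 at 0.047, Gpr17 at 0.23 and Itpr2 at 0.0058. The lower members were Enpp6 (-0.49), Bcas1 (-0.48), Tcf7l2 (-0.23) and Bmp4 (-0.21). With voom weights Enpp6 was at -0.59 and Bcas1 at -0.51. In the correlations above, 3 controls correlated best with their own number. Bmp4, at 40 to 276 counts, had the lowest counts of the members.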
